A study of Homo sapiens with 6 samples.

Results

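The genes described here encode amino acid transporters of 6 solute carrier (SLC) families, SLC1, SLC3, SLC7, SLC36, SLC38 and SLC43, in IMR90 cells with and without oncostatin M. They were chosen by symbol: the gene had to carry a name of one of these families and to have a probe set that the platform's gene table assigned to exactly 1 symbol. 1 gene of SLC7 was left out of the set by this choice and is not analysed here, and a gene with several probe sets is represented by its brightest one, averaged across all 6 arrays. This gave 39 genes of 18417 measured: 7 of SLC1, 2 of SLC3, 12 of SLC7, 4 of SLC36, 12 of SLC38 and 2 of SLC43.

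IMR90 is a line of human lung fibroblasts. The control group was 3 untreated samples, and the other group was 3 samples given 1 dose of recombinant human oncostatin M at 10 ng/mL, a cytokine of the interleukin-6 family. The labels name no genetic change in either group, and how long the cells were treated is not stated in them. Total RNA of each sample was hybridised to 1 Affymetrix array, and the comparison asks which transcripts differ in level after the cytokine.

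Cells take up and exchange amino acids through carriers that differ in substrate and in coupling to sodium or protons. SLC1 carriers move glutamate or small neutral amino acids with sodium, and SLC38 carriers take up glutamine and alanine or act on lysosomes. SLC7 carriers are either cationic amino acid transporters, which work alone, or light chains that reach the cell surface only when bound to a heavy chain of SLC3. SLC36 carriers couple transport to protons, and SLC43 carriers let large neutral amino acids pass by facilitated diffusion. Several of these genes are induced by the transcription factor ATF4 when amino acids run short, and the pool they fill is sensed by the kinase mTORC1.

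Values are log2 expression levels on each array, given for control 1, 2 and 3 and then for oncostatin M 1, 2 and 3. Changes are the oncostatin M mean minus the control mean on the log2 scale, with the standard error (SE) and, where stated, the 95% confidence interval of the limma fit over all genes. A gene was called where its Benjamini-Hochberg adjusted p over all 18417 genes was under 0.05. The labels do not say that replicates were separate cultures, so p-values cover only the spread between these samples. RNA of a whole culture was measured, so a change in cell number of a kind and a change in RNA per cell cannot be told apart.

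All 10 fibroblast markers lay above the range of genes that should be silent (defined below), with summed log2 levels of 116.1 to 117.0 in controls and 117.1 to 118.8 after oncostatin M. Of these 10, LUM (0.75) and PDGFRA (0.39) were called higher and PDGFRB (-0.37) lower, against 3.42% of all genes called in either direction. Of the 6 fits that left out 1 array, these calls held in 3, 2 and 1. The groups did not overlap for 7 of the 10, against 18.0% of all genes. None of 6 epithelial markers lay above the range of silent genes, with sums of 33.6 to 34.1 and 33.0 to 35.2. Of 4 endothelial markers, only TEK lay above that range. Its change of 0.47 was not called (limma adjusted p = 0.182) although its groups did not overlap. Of 4 leukocyte markers, CD68 lay above that range in both groups and CD14 only after oncostatin M, where it was called higher (change 1.44). Summed log2 levels of the leukocyte markers were 25.9 to 26.0 in controls and 27.2 to 27.6 after oncostatin M. The median change of these 4 was 0.02 and the lowest -0.02, so the sum mainly follows CD14. The part of these markers in the results below was not tested. SOCS3, a feedback inhibitor induced by this cytokine family, lay at 7.54 to 7.62 in controls and at 9.58 to 9.70 after treatment, with no overlap. Oncostatin M 1 differed most from its group, with an array weight of 0.226 in limma against 0.723 to 3.22 for the others.

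Oncostatin M raised 3 of the 39 transporter genes and lowered none at an adjusted p under 0.05 (limma), against 1.72% of all genes called higher and 1.70% called lower (3.42% in either direction). The counts over all genes, 316 and 314, fell to 156 and 105 without control 1 and to 188 and 127 without control 2, those called lower also to 136 without control 3 and 179 without oncostatin M 2, and both rose to 667 and 610 with array weights. The 3 were SLC38A6, which rose 2.18-fold, SLC7A2, a cationic amino acid transporter that carries arginine, which rose 1.48-fold, and SLC3A2, the heavy chain of the CD98 complex, which rose 1.31-fold. They are 7.69% of the set, but the count rests on few genes and the set was chosen with earlier results of these data known. At an unadjusted p under 0.05, 5 members were higher, against 4.98% of all genes, and 3 lower, against 6.66%. The other 36 genes had changes between -0.24 and 0.32. The median change of the 39 was 0.01 and that of all genes was 0.00. The groups did not overlap for 9 of the 39 genes (23.1%), against 18.0% of all genes. They were apart and higher for 6 of the 39, against 7.43% of all genes, and apart and lower for 3 of the 39, against 10.6%.

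**Figure D1:**
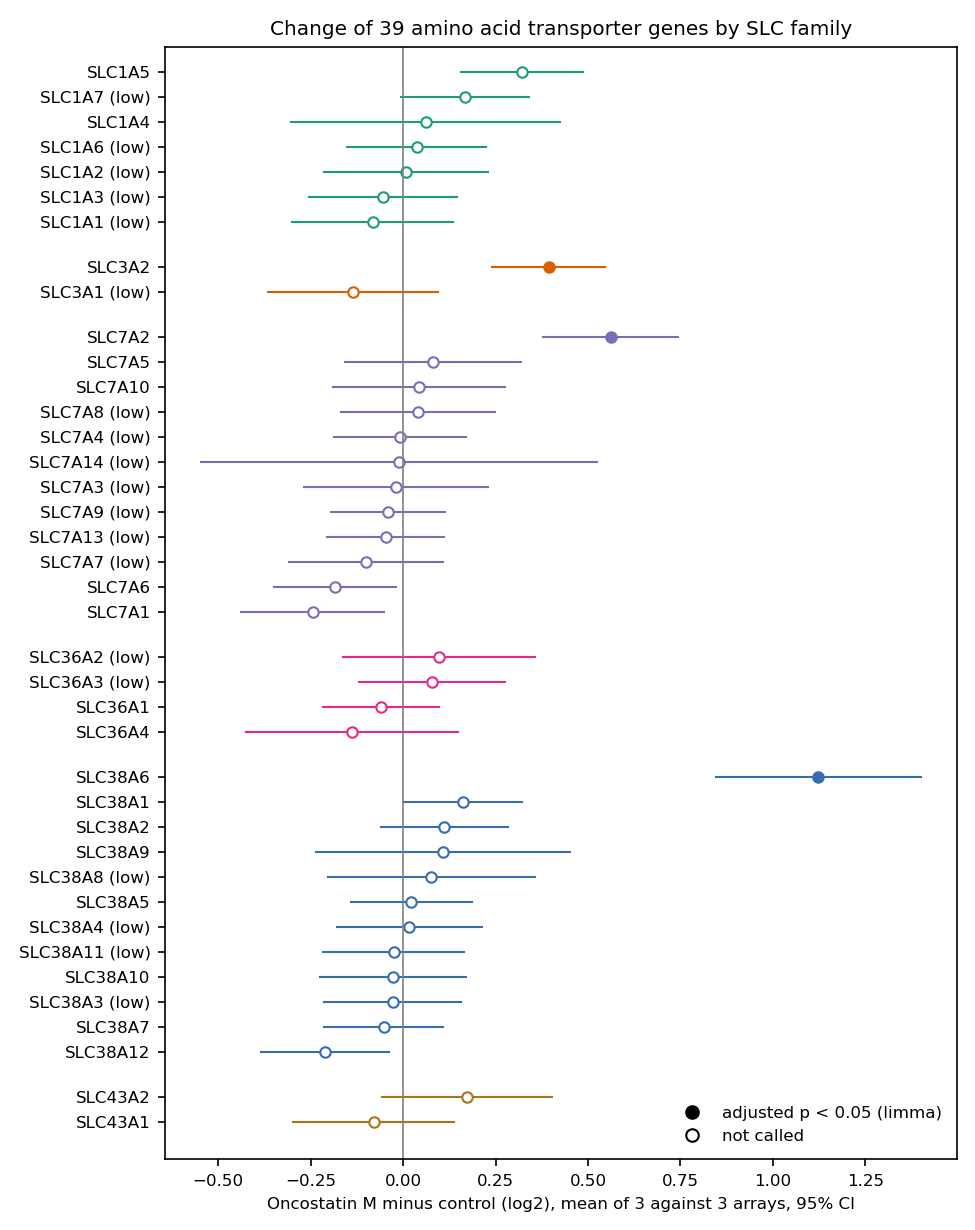
Change after oncostatin M (x axis, log2, mean of 3 arrays minus mean of 3 control arrays) for each of the 39 genes, grouped and coloured by SLC family, with the 95% confidence interval of the limma fit as a line. Filled circles mark the 3 genes called at an adjusted p under 0.05, "low" marks the 19 genes within the range of silent genes in both groups, and most open circles lie close to 0.

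The file holds no calls of detection. The 409 olfactory receptor and keratin-associated protein genes, which should be silent in fibroblasts, served as a reference, and their percentile of 95 was 6.74 in control and 6.77 after oncostatin M. By that bound 20 of the 39 genes lay above the reference in both groups and 19 within it in both, and no gene crossed it with treatment. Within the reference lay all 5 glutamate carriers of SLC1 (SLC1A1, SLC1A2, SLC1A3, SLC1A6 and SLC1A7), the renal and intestinal heavy chain SLC3A1 and its light chain SLC7A9, and the proton-coupled carriers SLC36A2 and SLC36A3. It also held SLC7A3, SLC7A4, SLC7A7, SLC7A8, SLC7A13 and SLC7A14 and the SLC38 members SLC38A3, SLC38A4, SLC38A8 and SLC38A11. None of these 19 was called, and their changes ran from -0.14 (SLC3A1) to 0.17 (SLC1A7). Genes within this range may still be expressed, and their changes may be understated.

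SLC38A6 belongs to the sodium-coupled neutral amino acid transporters, and its substrates are less well defined than those of its relatives. Its probe set (7974816) read 8.87, 8.60 and 9.06 in controls and 9.88, 10.08 and 9.95 after oncostatin M. The lowest treated array stood well above the highest control, and the controls were the more scattered group. The means were 8.84 ± 0.23 and 9.97 ± 0.10 (SD, n = 3 each), a rise of 1.12 (SE 0.12, 95% interval 0.85 to 1.40, limma adjusted p = 0.00198). The call held without any 1 array, with changes from 1.00 to 1.23 and adjusted p between 0.00136 and 0.0237.

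In the RefSeq gene order of GRCh38.p14, the start of SLC38A6 overlaps that of TRMT5, a tRNA methyltransferase gene named here after its values were seen. TRMT5 read 8.88, 8.64 and 8.82 in controls and between 8.78 and 9.15 after treatment, with overlapping groups. Its change was 0.20 (SE 0.11, limma adjusted p = 0.628).

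The other SLC38 genes were not called. SLC38A1 and SLC38A2, the system A carriers that take up glutamine and alanine in most tissues, lie beside SLC38A4 on chromosome 12 in the same gene order. SLC38A1 read 11.71, 11.69 and 11.68 in controls and 11.81, 11.94 and 11.82 after oncostatin M, so its groups did not overlap, with a change of 0.16 (95% interval 0.00 to 0.32, adjusted p = 0.426 with limma). SLC38A2, an ATF4-responsive gene, read 12.92, 12.80 and 12.93 against 12.93, 13.01 and 13.05. Its control range reached the lowest treated array, and its change was 0.11 (95% interval -0.06 to 0.28). SLC38A4, within the range of silent genes, differed by 0.02.

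The difference between SLC38A6 and SLC38A1 within an array was between -3.09 and -2.62 in controls and between -1.93 and -1.86 after treatment. The difference between SLC38A6 and SLC38A2 moved likewise, from a mean of -4.04 ± 0.17 to -3.03 ± 0.09 (SD, n = 3 each). These contrasts were picked after the values were seen and carry no test. They show unequal change of the transcripts and no order of their amounts, since levels of different probe sets cannot be set against each other.

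SLC38A12, formerly TMEM104, read 9.47, 9.58 and 9.52 in controls and 9.21, 9.36 and 9.36 after oncostatin M. All treated arrays lay below all controls, but the change of -0.21 (SE 0.08, 95% interval -0.38 to -0.04) was not called (limma adjusted p = 0.271). SLC38A9, a lysosomal arginine sensor upstream of mTORC1, read 8.87, 8.61 and 8.98 against 8.61, 9.13 and 9.04, with overlapping groups and a change of 0.11 (95% interval -0.24 to 0.45). The system N carrier SLC38A5 differed by 0.02, SLC38A7 by -0.05 and SLC38A10 by -0.03. The intervals of these 3 genes lay between -0.23 and 0.19.

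**Figure D2:**
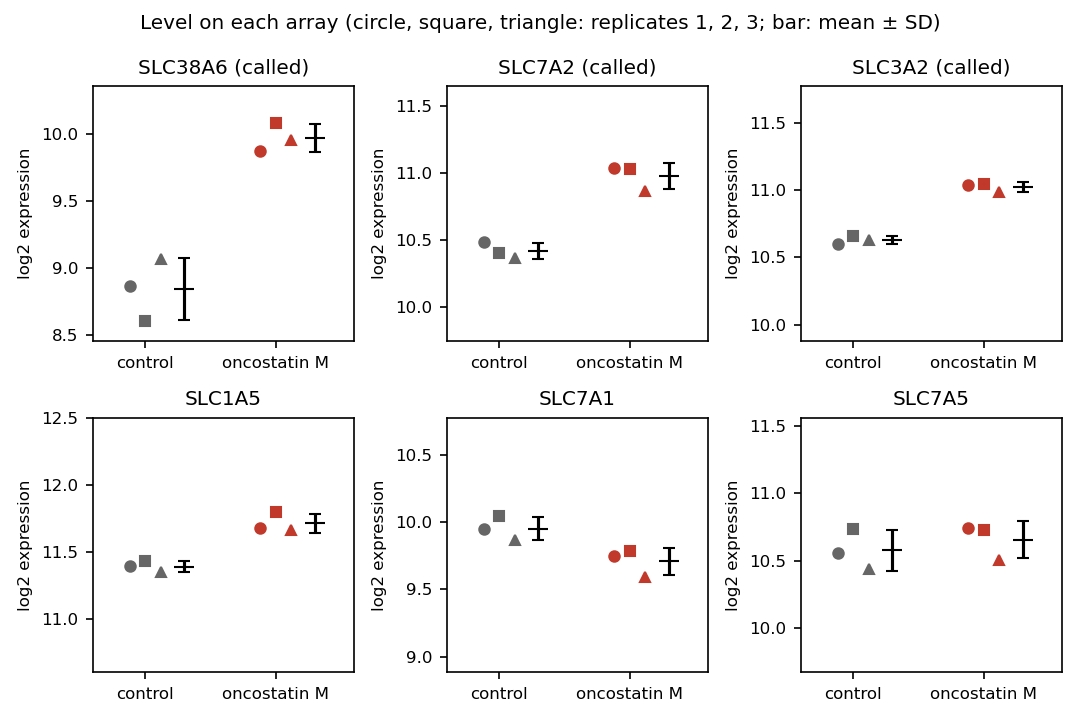
Log2 expression (y axis, all panels span the same range of log2 units) on the 3 control and 3 oncostatin M arrays for SLC38A6, SLC7A2, SLC3A2, SLC1A5, SLC7A1 and SLC7A5. Symbols give the replicate number and the bar the mean ± SD, and the groups are apart in every panel except that of SLC7A5.

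SLC7A2 and SLC7A1 encode cationic amino acid transporters, which take up arginine, lysine and ornithine. SLC7A1 is expressed in most cells, and SLC7A2 is known as an isoform that cytokines induce in macrophages and other cells. SLC7A2 (probe set 8144786) read 10.48, 10.40 and 10.36 in controls and 11.04, 11.03 and 10.86 after oncostatin M. The groups were apart by several times their spread, with means of 10.42 ± 0.06 and 10.98 ± 0.10 (SD, n = 3 each). The rise was 0.56 (SE 0.08, 95% interval 0.38 to 0.74, limma adjusted p = 0.00688). It was called without any 1 array, with adjusted p up to 0.0424.

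SLC7A1 (probe set 7970810) read 9.95, 10.04 and 9.87 in controls and 9.75, 9.79 and 9.59 after oncostatin M. Here all treated arrays lay below all controls. The change of -0.24 (SE 0.08, 95% interval -0.44 to -0.05) was not called (limma adjusted p = 0.244), but was called with array weights (adjusted p = 0.038). The difference between SLC7A2 and SLC7A1 within an array was 0.53, 0.36 and 0.49 in controls and 1.29, 1.25 and 1.27 after treatment, a shift of 0.81 that was described after the values were seen and was not tested. The cationic carrier SLC7A3 and the related genes SLC7A4 and SLC7A14 lay within the range of silent genes. SLC7A14 had the widest spread of the set, since control 3 read 6.48 against 5.59 and 5.50, and its other probe set read 5.66 on that array.

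SLC3A2 encodes CD98hc, the heavy chain that carries several SLC7 light chains to the plasma membrane. Its probe set (7940717) read 10.60, 10.66 and 10.63 in controls and 11.04, 11.05 and 10.99 after oncostatin M. Both groups were tight and apart, with means of 10.63 ± 0.03 and 11.02 ± 0.03 (SD, n = 3 each). The rise was 0.39 (SE 0.07, 95% interval 0.24 to 0.55, limma adjusted p = 0.0162). The size hardly moved when 1 array was left out (0.38 to 0.41), but the call was kept only without oncostatin M 1 (adjusted p = 0.0182). The adjusted p was 0.0976, 0.0628 and 0.0779 without control 1, 2 or 3, and 0.0764 and 0.0508 without oncostatin M 2 or 3.

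Of the light chains that pair with SLC3A2, 5 were measured here, and none was called. SLC7A5, the light chain LAT1 that imports leucine and other large neutral amino acids, read 10.56, 10.73 and 10.43 in controls and 10.74, 10.73 and 10.50 after oncostatin M. Its groups overlapped, and its change was 0.08 (SE 0.10, 95% interval -0.16 to 0.32, limma adjusted p = 0.927). SLC7A6, which exchanges cationic for neutral amino acids, read 9.96, 10.02 and 9.89 against 9.71, 9.81 and 9.81. Its groups did not overlap, and its change was -0.18 (SE 0.07, 95% interval -0.35 to -0.02, limma adjusted p = 0.345).

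SLC7A10, a carrier of small neutral amino acids such as serine, differed by 0.04 (95% interval -0.19 to 0.27). SLC7A7 and SLC7A8 lay within the range of silent genes and differed by -0.10 and 0.04. The differences of SLC7A8 and SLC7A10 turned sign without oncostatin M 1 and with array weights, and that of SLC7A10 also without control 3, so no direction is given for them. Those of SLC1A4, SLC36A4, SLC38A5 and SLC38A10, all above the range of silent genes, also took either sign when 1 array was left out. SLC3A1 and its light chain SLC7A9, the pair that reabsorbs cystine in the kidney, read between 5.04 and 5.45 and between 5.98 and 6.09 over the 6 arrays, and differed by -0.14 and -0.04.

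Whether the heavy chain changed unlike each light chain was tested on the difference of their log2 values within an array, for 6 pairs. SLC3A2 minus SLC7A5 was 0.04, -0.071 and 0.198 in controls and 0.295, 0.325 and 0.485 after oncostatin M, a shift of 0.31. SLC3A2 minus SLC7A6 was 0.64, 0.64 and 0.74 and then 1.32, 1.24 and 1.18, a shift of 0.58. For SLC7A10, which itself differed by 0.04, the shift was 0.35 and mostly follows the rise of SLC3A2 (0.39). In these 3 pairs the groups did not overlap, and each had an exact two-sided permutation p of 0.1, the smallest that 3 against 3 arrays allow (0.12 after Benjamini-Hochberg over 6 pairs). This test therefore cannot pass 0.05 with 3 arrays a group. The other 3 of the 6 pairs hold genes within the range of silent genes, so their values say nothing of how those genes changed: SLC3A2 against SLC7A7 and SLC7A8 shifted by 0.49 and 0.35, which follow the rise of SLC3A2, and SLC3A1 against SLC7A9 by -0.09. All pairs with SLC3A2 share its values and are not independent of each other.

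**Figure D3:**
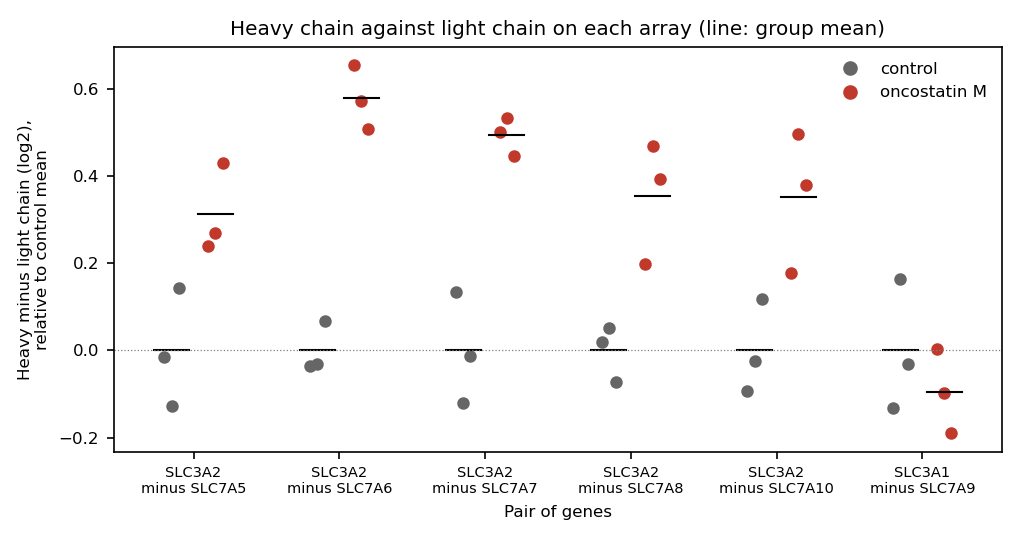
Difference between the log2 values of heavy and light chain on each array (y axis, set to 0 at the control mean of the pair) for 6 pairs of genes (x axis). Grey points are the 3 control and red points the 3 oncostatin M arrays, lines are group means, and the red points lie above all grey ones in the pairs of SLC3A2 with SLC7A5, SLC7A6 and SLC7A10, at mean shifts of 0.31, 0.58 and 0.35, while the other 3 pairs hold genes within the range of silent genes.

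SLC1 held 2 neutral amino acid carriers above the range of silent genes. SLC1A5, the carrier ASCT2 that exchanges glutamine for other neutral amino acids, read 11.39, 11.43 and 11.35 in controls and 11.68, 11.80 and 11.66 after oncostatin M (probe set 8037835). All treated arrays lay above all controls, and the means were 11.39 ± 0.04 and 11.71 ± 0.07 (SD, n = 3 each). The change of 0.32 (SE 0.07, 95% interval 0.16 to 0.49) lay just short of the threshold (limma adjusted p = 0.0551). It passed without oncostatin M 1 (adjusted p = 0.047), with array weights (0.0147), after quantile normalization (0.03), with a trended and robust prior (0.00601) and among fewer genes after either filter on dim genes (0.027 and 0.0197). Without any other 1 array it was not called, with adjusted p up to 0.227 without control 3. Nor was it called after median centring (limma adjusted p = 0.136) or with all probe sets tested (0.13). The mean of its probe sets gave an adjusted p of 0.301 and its dimmer probe set 0.859. The other probe set of SLC1A5 (8029854) lay near the range of silent genes, with a control mean of 6.97, and gave a change of 0.13 (95% interval -0.14 to 0.40) with overlapping groups.

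SLC1A4, the carrier ASCT1 of alanine, serine and cysteine, read 8.73, 8.83 and 8.46 in controls and 8.91, 8.91 and 8.39 after oncostatin M. The spread within both groups exceeded the change of 0.06 (95% interval -0.30 to 0.43). In both groups its lowest array was replicate 3, as for SLC1A5, SLC7A5, SLC7A1, SLC7A2 and SLC43A1. So 6 of the 20 genes above the range of silent genes, and 10 of all 39 members, shared that order. The share of all genes tested, dim ones included, was 13.8%. This order was noticed in the data and was not tested.

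Of the proton-coupled carriers, SLC36A1 and SLC36A4 lay above the range of silent genes. SLC36A1, which exports small amino acids from lysosomes, differed by -0.06 (95% interval -0.22 to 0.10). SLC36A4 read 8.78, 8.63 and 8.76 in controls and 8.30, 8.71 and 8.75 after oncostatin M, so its difference of -0.14 came with 1 low array, oncostatin M 1. SLC36A1, SLC36A2 and SLC36A3 are neighbours on chromosome 5, and none of them was called. The facilitated carriers SLC43A1 (LAT3) and SLC43A2 (LAT4) differed by -0.08 (95% interval -0.30 to 0.14) and 0.17 (95% interval -0.06 to 0.40), and the groups overlapped for both.

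**Figure D4:**
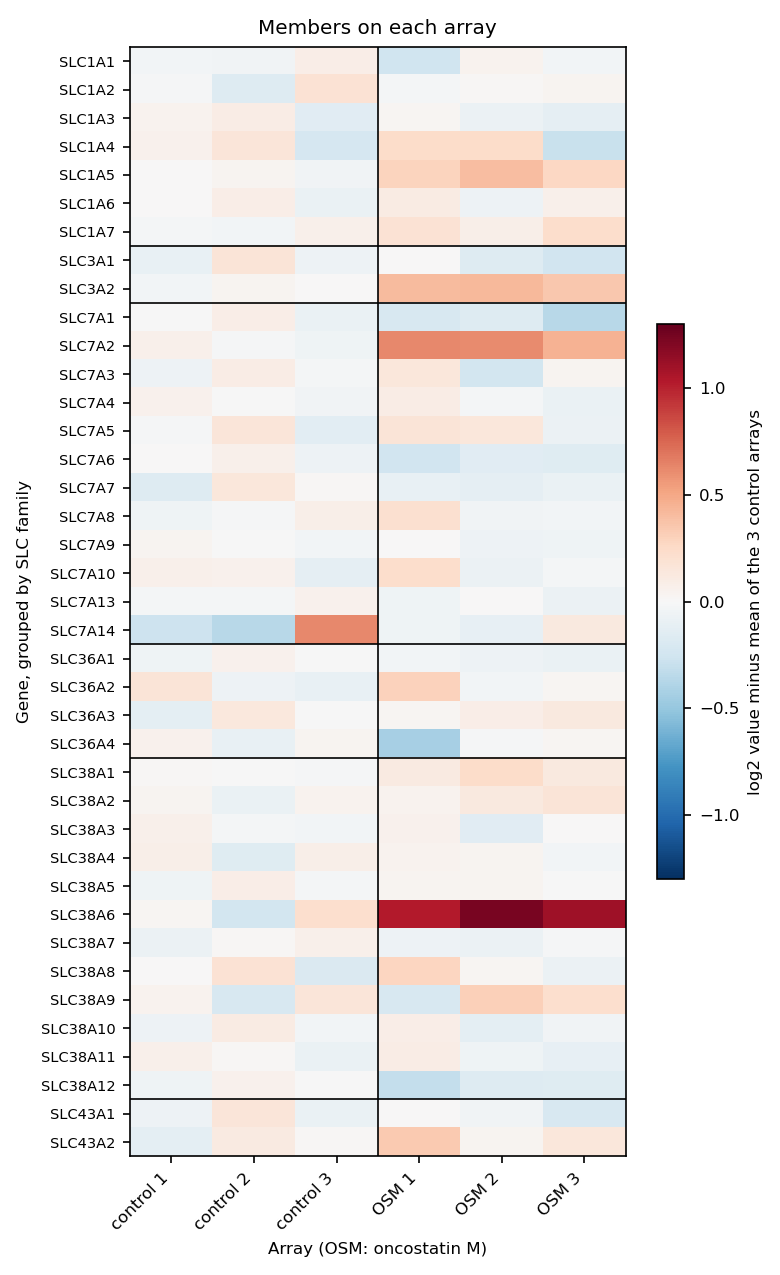
Log2 value of each of the 39 genes (rows, grouped by SLC family) on each array (columns), minus the mean of that gene's 3 control arrays (colour scale, blue lower and red higher). SLC38A6, SLC7A2, SLC3A2 and SLC1A5 are higher on all 3 oncostatin M arrays, SLC36A4 is low on oncostatin M 1, and SLC7A14 is high on control 3.

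By family, calls were 1 of 2 in SLC3, 1 of 12 in SLC7 and 1 of 12 in SLC38, all higher, and none of 7 in SLC1, none of 4 in SLC36 and none of 2 in SLC43. Over all genes, 1.72% were called higher and 1.70% lower. The other gene of SLC3, SLC3A1, lay within the range of silent genes. Median changes were 0.04 in SLC1, 0.13 in SLC3, -0.01 in SLC7, 0.01 in SLC36, 0.02 in SLC38 and 0.05 in SLC43. The median over all genes was 0.00. In SLC7 the members ranged from -0.24 to 0.56 and in SLC38 from -0.21 to 1.12.

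Promoter sequence was examined for the genes with an entry in the RefSeq table of GRCh38.p14, which held 54 windows of 300 bases, from 250 before to 50 after a start site, for 32 of the 39 genes. SLC38A6 and SLC3A2 had entries. Both strands were searched for the letters TTCNNNGAA, to which STAT factors can bind, TGATGNAAT of the amino acid response element, TGANTCA of AP-1 and the E-box CACGTG. The matches printed do not overlap each other. The STAT letters stood in 4 of 54 windows (7.41%) against 7.66% of 35116 windows of all genes, and those of AP-1 in 8 (14.8%) against 7.71%. The E-box stood in 9 windows (16.7%) against 7.26%, including the only window of SLC7A5 and 1 of the 3 windows of SLC1A5. The amino acid response letters stood in none, against 0.991%. At so low a share 54 windows are too few for their absence to be informative, and bases outside the windows were not searched. The only window of SLC38A6 held none of the 4 motifs. Among the 3 windows of SLC3A2, that beginning at chr11:62855859 also held none of them.

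The 4 STAT matches are shown with 10 bases on either side, the match in capitals, 5′ to 3′ on the strand of the gene, because SLC3A2, of the 2 called genes with an entry, had such matches. They lie at chr11:62880678-62880706 and chr11:62881605-62881633 (plus strand, SLC3A2), at chr12:46266683-46266711 (minus strand, SLC38A1) and at chr5:36596533-36596561 (plus strand, SLC1A3), and begin 208, 84, 185 and 45 bases before a start site.
SLC3A2 first: gtgccaggccTTCCCAGAAtcaggttgaa
SLC3A2 second: cttccctcctTTCTTTGAAgaaagccgac
SLC38A1: ttgtttcaccTTCTATGAAgcttccgttc
SLC1A3: tggtcctaacTTCCTGGAAgattttgaaa
These 3 genes were called higher (SLC3A2), not called with groups apart (SLC38A1) and within the range of silent genes (SLC1A3).

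The window of SLC3A2 with the second match also held AP-1 letters, 37 bases before its start site. The 250 bases before that start, chr11:62881449-62881698 on the plus strand, are shown whole with both matches in capitals.
SLC3A2: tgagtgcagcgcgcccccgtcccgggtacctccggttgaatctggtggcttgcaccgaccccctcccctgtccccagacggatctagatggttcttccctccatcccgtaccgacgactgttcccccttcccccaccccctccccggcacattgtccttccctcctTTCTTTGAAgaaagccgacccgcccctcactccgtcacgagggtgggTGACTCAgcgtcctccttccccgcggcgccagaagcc
A match says that these letters are present in the reference sequence. Binding was not measured.

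Genes that surround the transporters in amino acid metabolism were described with 7 lists, also chosen with earlier results of these data known. Over all genes, 1.72% were called higher and 1.70% lower, and the median change was 0.00. Of 21 carriers of amino acids, taurine or peptides from other SLC families, 1 was higher and none lower (median change -0.01). That was SLC6A15, a sodium-coupled carrier of branched-chain amino acids and proline known mainly from neurons, which read 7.64, 7.73 and 8.02 in controls and 9.32, 9.40 and 9.56 after oncostatin M. Every treated array was more than 1 log2 unit above every control, and the rise of 1.63 (SE 0.11, 3.09-fold, limma adjusted p = 0.000327) was called without any 1 array. None of 14 mitochondrial carriers of amino acids or glutathione was called.

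Of 20 genes of the amino acid response through ATF4, 2 were higher, against 1.72% of all genes, and none lower, against 1.70%. The median change was 0.07. CEBPB, a transcription factor, read 9.23, 9.23 and 9.29 in controls and 9.70, 9.81 and 9.81 after oncostatin M, a rise of 0.52 (SE 0.07, limma adjusted p = 0.0052). VLDLR, a lipoprotein receptor, rose by 0.81 (SE 0.14, adjusted p = 0.0163 with limma), a call lost without control 1 (0.0962), control 3 (0.0516) or oncostatin M 2 (0.0533). The other 18 genes of the list were not called. ATF4 itself differed by 0.05, and ASNS, TRIB3 and CHAC1, its widely used targets, by 0.16, 0.10 and 0.08, all with overlapping groups; these 4 were named after their values were seen.

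Of 19 cytosolic aminoacyl-tRNA synthetases, which load amino acids onto tRNA, WARS1 was higher and the other 18 were not called (median change 0.04). The share of all genes called higher was 1.72%. WARS1, the tryptophan enzyme, which interferon also induces, read 10.93, 10.77 and 10.81 in controls and 11.62, 11.70 and 11.50 after oncostatin M, a rise of 0.77 (SE 0.08, limma adjusted p = 0.002) that was called without any 1 array. No gene was called among 13 for the synthesis of serine, glycine, proline and asparagine, 16 for glutamine, glutamate, branched-chain and arginine metabolism, and 27 for amino acid sensing upstream of mTORC1. In the last list 19 genes lay below 0 and 8 above, with a median of -0.04. Its groups were apart for 6 genes, all lower, against 10.6% of all genes with lower, non-overlapping groups. Above and below 0 lay 15 and 5 genes of the ATF4 list, 13 and 6 synthetases, 9 and 4 of the first synthesis list and 10 and 6 of the glutamine list. For carriers of other SLC families these counts were 9 and 12, and for mitochondrial carriers 7 and 7. Groups were apart for 4, 4, 2, 4, 4 and 2 genes of these lists in turn, against 18.0% of all genes.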

How the data were processed

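Per the submitters' processing notes, the authors made the deposited log2 values, 1 per probe set and array, with RMA in Affymetrix Expression Console 1.1; settings and a genome build are not given in the sources used here. RMA makes the arrays alike in distribution and shrinks differences at low intensity. Array medians were 6.536 to 6.663 and correlations between arrays 0.9893 to 0.9968.

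Of 33297 probe sets, 19460 had 1 symbol, 1754 several and 12083 none in the platform's gene table. The model, with group as its only term, was fitted over 18417 genes with limma 3.58.1 in R 4.3.3 (lmFit, eBayes, two-sided, no filter on dim genes). It was also run on simulated data with independent noise of equal spread on all arrays. That run does not test the fit for arrays of unequal weight. Figures used matplotlib 3.10.9 and exact tests scipy 1.17.1. Precision is limited by having 3 arrays a group.

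The members and lists were chosen with earlier results of these data known. Named genes were the called members, up to 2 members per family with the largest change among those above the range of silent genes whose groups did not overlap, the SLC3 heavy chains and their SLC7 light chains, up to 4 called genes per list, and SOCS3. Other genes are named only to account for members or after their values were seen. Alternatives covered normalization, which probe set stands for a gene, leaving out single arrays, weighting the arrays, blocking on replicate number, another variance prior, filters on dim genes, the features tested and a threshold of 0.01.

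Replicate numbers recur in both groups. Deviations from the group means correlated at 0.0635, -0.456 and 0.511 for replicates 1, 2 and 3, so the numbers were not taken as pairs.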

Additional observations from a re-analysis of the deposited data

How the results depend on the processing

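SLC38A6 and SLC7A2 were called under all 17 alternatives and SLC3A2 under 10. SLC1A5, not called in the main fit, was called under 6, and not with the replicate block (limma adjusted p = 0.106). Members called higher numbered 2 to 4 and members called lower 0, except for 1 (SLC7A1) with array weights. Over all genes, 667 were higher and 610 lower with array weights, 209 and 152 when all probe sets were tested, and 175 and 112 at a threshold of 0.01; without 1 array the counts were 156 to 400 higher and 105 to 332 lower. With the replicate number as a replicate block, SLC3A2 was not called (0.394, adjusted p = 0.0599), and 3 of 6 arrays correlated best with their own number. VLDLR, besides without 3 arrays, was not called with all probe sets tested (adjusted p = 0.0576) or at the threshold of 0.01.

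The median of the set took either sign, as did those of all families except SLC3. After either filter on dim genes they were 0.0523 for the 39 genes (20 left), 0.192 in SLC1, 0.394 in SLC3, 0.0428 in SLC7, -0.0997 in SLC36 and 0.0649 in SLC38, as fewer genes were left. With array weights they were -0.0235 for the set, -0.0252 in SLC36 and -0.0181 in SLC38, and SLC36 gave -0.0013 after median centring. Without 1 array the medians ran from -0.023 to 0.0207 for the set, -0.00566 to 0.079 in SLC1, 0.0909 to 0.178 in SLC3, -0.0554 to 0.0197 in SLC7, -0.0363 to 0.0153 in SLC36, -0.011 to 0.0381 in SLC38 and -0.0154 to 0.114 in SLC43. SLC7A8 turned sign with array weights (-0.0159) and without oncostatin M 1 (-0.045), within -0.045 to 0.0846 without 1 array. SLC7A10 turned sign with array weights (-0.0407), without control 3 (-0.016) and without oncostatin M 1 (-0.0508), within -0.0508 to 0.103 without 1 array. Further genes above the range of silent genes took either sign without 1 array. They were SLC1A4 (-0.0452 to 0.237), SLC36A4 (-0.222 to 0.00634), SLC38A5 (-0.00718 to 0.0656) and SLC38A10 (-0.0852 to 0.0263). The cause was not tested.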

Other observations

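A probe set that the gene table gives to both SLC43A3, a further member of SLC43, and PRG2 read 8.46, 8.57 and 8.61 in controls and 8.66, 8.64 and 8.73 after oncostatin M. Its groups did not overlap, and the difference of 0.14 cannot be given to either gene.

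Many genes of the ATF4 list had the same order of replicates in both groups. Of its 20 genes, 12 had their lowest control value on control 3 and their lowest treated value on oncostatin M 3, among them ATF4, ASNS, TRIB3, CHAC1 and DDIT3, against 13.8% of all genes. The same order held for 6 of 13 genes of serine, glycine, proline and asparagine synthesis (PSAT1, PSPH, SHMT2, MTHFD2, PYCR1 and ASNS), for 6 of 19 synthetases and for 10 of the 39 transporters. ASNS read 8.89, 8.78 and 8.63 in controls and 9.06, 9.09 and 8.64 after oncostatin M. TRIB3 read 7.96, 7.97 and 7.73 in controls and 8.19, 8.05 and 7.74 after oncostatin M. The order was noticed in the data and is given without a test; it also held for 5 of 10 fibroblast markers, and for 3 of 6 epithelial markers. Of 27 genes of amino acid sensing upstream of mTORC1, 14 were instead lowest on replicate 1 in both groups, as were 3070 of all 18417 genes.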
